A study of Mus musculus with 4 samples.

Results

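The myosin light chain kinases were examined in whole transcriptome start site sequencing (WTSS-seq) data of mouse gastrocnemius muscle. The members were all rows of the start site table with the symbol Mylk, Mylk2, Mylk3 or Mylk4. They came to 108 start sites of the 42207 in the table, and 3 of the 4 genes had any site. Mylk4 held 100 sites, Mylk2 held 6, Mylk held 2 and Mylk3 held 0. The groups were adult male C57BL/6 mice with AMPKα2-/- (KO) and wild-type (WT) controls, with 2 mice and 2 libraries in each group. In the KO line a part of the catalytic domain of AMPKα2, a subunit of the energy sensor AMP-activated protein kinase, is deleted. In WTSS-seq a read begins at the 5′ end of a transcript or of a piece of one, and a start site is a cluster of such read ends. The labels give the tissue only as skeletal muscle, and they list no treatment.

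Myosin light chain kinases are switched on by calcium-loaded calmodulin and transfer a phosphate to the regulatory light chain of myosin. In smooth muscle this step starts contraction, whereas in striated muscle it raises the force of a contraction that the thin filament has already started. Mylk encodes the smooth muscle and non-muscle enzyme, Mylk2 the skeletal muscle enzyme and Mylk3 the cardiac enzyme, and Mylk4 encodes a further family member named for its related kinase domain.

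The 4 libraries held 1300069 to 2900279 reads, with the KO libraries the deeper ones. The table lists only sites with at least 10 reads over the 4 libraries, so a site not listed may still have had reads. Prkaa2, the targeted gene, had summed counts of 244 and 209 reads in KO and 109 and 149 in WT. Its log2 fold change was -0.03 (SE 0.50). Which of its sites lie in the deleted part was not analysed here, so this sum does not check the labels. The 11 fast fibre markers all had sites and summed to 33815 to 55674 normalized counts in each library, the 8 of 9 slow fibre markers with sites to 534 to 1654, and the 4 of 7 smooth muscle markers with sites to 67.2 to 168. The 2 of 6 cardiac markers with sites summed to 5.61 to 28.6, and Tnnt2, Tnni3, Mybpc3 and Nppa had no site. The summed markers of adipocytes ran from 2943 to 5881, but Fabp4 alone held 2861 to 5792 of this. Adipoq, another adipocyte marker, had 22.4 to 35.8 normalized counts, and Cidec and Retn had no site. The summed markers of endothelium ran from 61.1 to 149, of Schwann cells from 13.7 to 86.9 and of blood from 16.2 to 28.1.

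The Mylk4 start in the RefSeq promoter table, called the annotated start below, is shown because the data hold a site there. The annotated span of the gene reaches further upstream, so other transcripts of Mylk4 begin elsewhere. The sequence is that of RefSeq for GRCm38.p6, chr13:32783915-32784214 on the minus strand, running from 250 bases before the annotated start to 50 after it, and the capitals mark the 30 bases covered by the start site. RefSeq promoter sequences were present for 3 of the 4 genes.

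Mylk4 promoter: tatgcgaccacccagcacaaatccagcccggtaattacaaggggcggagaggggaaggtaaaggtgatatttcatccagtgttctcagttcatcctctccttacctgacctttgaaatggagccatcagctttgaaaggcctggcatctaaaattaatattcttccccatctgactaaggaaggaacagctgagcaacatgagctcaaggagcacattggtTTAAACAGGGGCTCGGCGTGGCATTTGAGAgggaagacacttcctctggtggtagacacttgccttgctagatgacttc

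The site ran from 29 bases before the annotated start up to the start itself, and the position that the table lists for it lay 5 bases before it. The promoter held 4 matches to CANNTG, the E-box letters read by muscle basic helix-loop-helix factors, at -83, -64, -8 and 27 bases from the start, searched on both strands. These letters were present in 72.3% of all 32851 promoters of this length, and 6.49% held at least 4 matches. The match at -64 also reads CAGCTG, which 16.3% of the promoters hold. The consensus of MEF2, another muscle transcription factor, had 1 match at -103 and was present in 1.86% of all promoters. The TATA box letters TATAAA, present in 13.6% of the promoters, had no match in this window.

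This start site had 21 and 7 reads in WT and 51 and 64 in KO. On normalized counts, the reads divided by the size factor of the library, these were 28.5 and 8.09 in WT and 33.5 and 55.2 in KO. Both KO libraries were above both WT libraries, but WT 1 lay close to KO 1. The log2 fold change of KO over WT was 1.28 (SE 1.03) with an adjusted p of 0.94 (Wald test of DESeq2 over all sites), which did not pass the threshold of 0.1. The site held 1.70% (95% Wilson interval 1.12 to 2.59%) and 0.489% (0.237 to 1.01%) of the Mylk4 reads in WT, and 1.40% (1.06 to 1.83%) and 0.305% (0.239 to 0.390%) in KO. Of 2827 genes with at least 100 reads and an annotated start in the RefSeq table, 15.9% had any site within 50 bases of a start, so a share of reads there is a property of few genes in this table.

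The Mylk4 reads were concentrated elsewhere. The most abundant Mylk4 site lay at chr13:32703747-32704181 on the minus strand, 79808 bases downstream of the annotated start and 3332 bases from the end of the gene. It carries the class code c, contained in the exons of an annotated transcript. It spanned 435 bases, against a median width of 32.5 bases for the Mylk4 sites and of 13 for all sites, and 0.0924% of all sites were wider. Among sites with at least 1000 reads the median width was 53 bases and 6.54% were wider.

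This site had 824 and 764 reads in WT and 2059 and 19446 in KO. The normalized counts were 1118 and 882 in WT and 1351 and 16782 in KO. KO 1 was close to the WT libraries, whereas KO 2 stood far above the other 3. The means were 1000 ± 167 in WT and 9067 ± 10911 in KO (SD, n = 2 each), so the SD of the KO group exceeded its mean. KO 1 was 1.35 times the WT mean and KO 2 was 16.8 times the WT mean. The log2 fold change was 3.18 (SE 0.84) with an adjusted p of 0.0137 by the Wald test of DESeq2. It was the only member site called, and 2.33% of the 11112 sites tested were called higher in KO. By the quasi-likelihood test of edgeR the log2 fold change was 3.12 and the adjusted p was 0.199, and 0 member sites were called where 0.427% of all tested sites were called higher in KO. At an unadjusted p under 0.05, 4 of the 29 member sites tested by DESeq2 passed, against 9.63% of all sites tested. Of the 30 member sites tested by edgeR, 6 passed, against 10.3% of all sites tested. These counts are a description only. By DESeq2 the log2 fold change was 0.42 without KO 2, 2.99 without WT 2 and 4.10 without KO 1. Each of these fits leaves 1 library in a group, so the spread of that group was not measured.

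**Figure D1:**
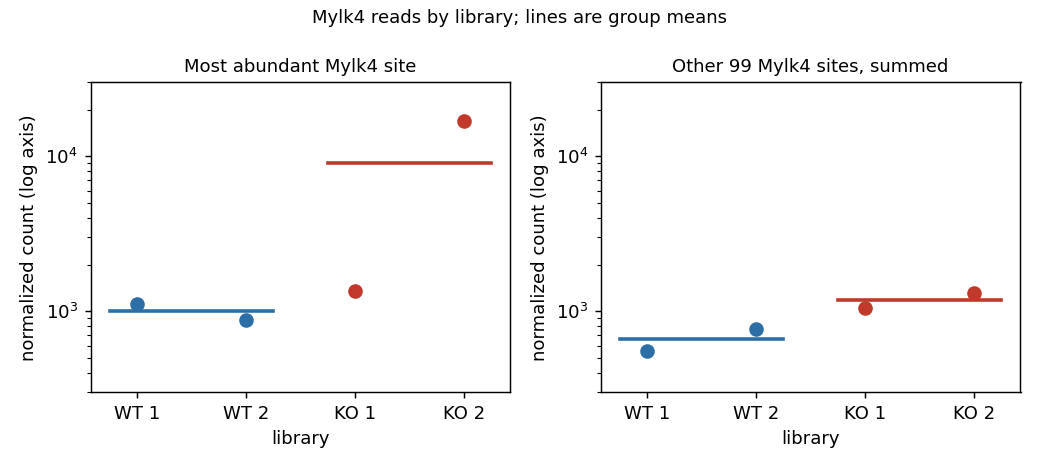
Normalized counts on a log axis in each library for the most abundant Mylk4 site (left) and the sum of the other 99 Mylk4 sites (right); points are libraries and lines are group means. KO 2 sits at 16782 at the most abundant site while the other 3 libraries sit between 882 and 1351, and at the other sites the 4 libraries sit between 556 and 1313.

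The spread between the 2 KO libraries at this site was wide against other abundant sites. KO 2 over KO 1 came to a log2 ratio of 3.63, with 1 added to each normalized count, where the median absolute value over the 520 sites with at least 1000 reads was 0.52. Of these 520 sites, 5 had a larger log2 ratio in the same direction. WT 2 over WT 1 was -0.34 at the Mylk4 site. In KO 2 the site took 0.844% of all reads of the library and was the 13th most abundant site, and in KO 1 it took 0.0710% and ranked 94th. In WT it took 0.0634% and 0.0487% and ranked 110th and 121st.

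The share of the Mylk4 reads held by this site was 66.8% (95% Wilson interval 64.1 to 69.3%) in WT 1, 53.4% (50.8 to 55.9%) in WT 2, 56.3% (54.7 to 57.9%) in KO 1 and 92.7% (92.4 to 93.1%) in KO 2. The intervals cover counting error within 1 library and not the spread between mice. Reads copied by PCR were not told apart, so the intervals may be too narrow even for counting error. KO 1 lay between the WT libraries and KO 2 above both. The share over the 4 libraries together was 84.6%, where the median for the 223 genes with at least 20 sites was 29.3% and 3 genes had a larger share. This pooled share is weighted towards KO 2, which gave 20968 of the 27288 Mylk4 reads. Genes were not ranked by their share within single libraries. With 2 libraries against 2 an exact permutation test cannot give a p below 1 in 3, and none was run on the shares.

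Start site usage within Mylk4, the level of each site against the other sites of the gene, had an adjusted p of 0.408 by the Simes method of diffSpliceDGE in edgeR, over 2145 genes of which 1.35% were called. The gene-level F test gave an adjusted p of 0.000462 where 3.31% of the genes were called. Without the most abundant site the adjusted p was 0.433 by the Simes method and 0.412 by the F test. The call of the F test was therefore not kept when this site was left out.

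The other 99 Mylk4 sites were nearer to each other between replicates. Their summed normalized counts were 556 and 772 in WT and 1047 and 1313 in KO. Both KO libraries were above both WT libraries, with means of 664 ± 152 and 1180 ± 189 (SD, n = 2 each), or 1.78 times higher in KO. In the fit over gene sums without the most abundant site of each gene, Mylk4 had a log2 fold change of 0.69 (SE 0.34) with an adjusted p of 0.769 by DESeq2. The difference did not pass the threshold.

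Summed over all 100 sites, Mylk4 had 1234 and 1432 reads in WT and 3654 and 20968 in KO. Its adjusted p over gene sums was 0.493 by DESeq2 and 0.207 by the quasi-likelihood test of edgeR, and 2.67% of the 4688 genes tested were called by DESeq2. The sum, whose fold change is dominated by KO 2, did not pass although its main site did. DESeq2 kept a dispersion of 0.764 for the sum, set apart as an outlier from the trend, and used 0.338 for the site, where the site's own estimate was 0.996. Of 15 alternatives, 5 moved the sum past the threshold, all higher in KO. These were the removal of KO 1, with a log2 fold change of 3.39, and 4 settings of scaling, filtering, blocking and class of site. The removal of KO 1 leaves KO 2 alone in its group, so the spread of the KO group was not measured there. Without KO 2 the log2 fold change of the sum was 0.36.

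The Mylk4 sites were spread over the gene, which RefSeq places at chr13:32700824-32806773. Of the 100 sites, 99 were on the minus strand of the gene and 1 on the plus strand. By class code 73 were intronic (i), 24 contained in a transcript (c), 2 spanned an exon and an intron (e) and 1 overlapped exons otherwise (o). Intronic sites made up 73.0% of the Mylk4 sites, 52.0% of all sites with a gene and 62.4% of the sites of genes with at least 20 sites. Mylk4 ranked 6th of 9838 genes by its number of sites, at 9.44 sites per 10 kb of the gene. Most were shallow, with a median of 20 reads over the 4 libraries, and 51 had at most 20.

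**Figure D2:**
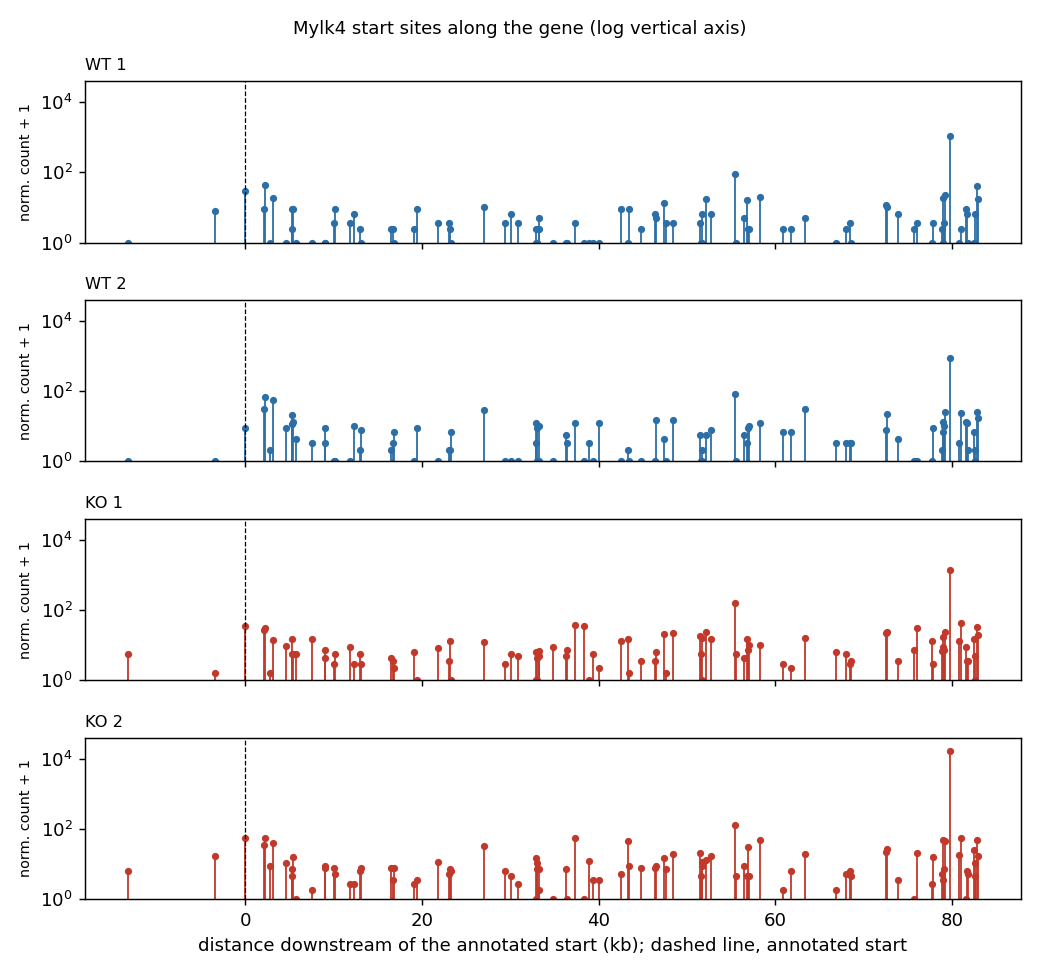
Normalized count plus 1 on a log axis for each of the 100 Mylk4 sites against the distance downstream of the annotated start in kb, with 1 panel per library. The tallest site in each library lies 79808 bases downstream, and no other site exceeds 161 normalized counts.

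Leaving out the most abundant site, the intronic sites held 46.8% and 48.5% of the Mylk4 reads in WT and 52.2% and 52.4% in KO. Their summed normalized counts were 261 and 374 in WT and 547 and 689 in KO. The exonic sites of class c and o, also without the most abundant, summed to 284 and 337 in WT and 459 and 571 in KO. For both kinds of site the 2 KO libraries were above the 2 WT libraries, and the KO mean was 1.95 times the WT mean for intronic sites and 1.66 times for exonic sites.

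By position, 13 sites lay in the first 10 kb, 64 in the middle, 21 in the last 10 kb and 2 upstream of the annotated start. Without the most abundant site the last 10 kb had 133 and 164 normalized counts in WT and 248 and 324 in KO. The middle had 303 and 381 in WT and 631 and 728 in KO. The first 10 kb had 114 and 226 in WT and 163 and 240 in KO, where the groups overlapped.

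The second most abundant site was at chr13:32728490-32728763 and carries the class code o. It had 64 and 72 reads in WT and 245 and 150 in KO, or 86.8 and 83.2 normalized counts in WT and 161 and 129 in KO. Both KO libraries were above both WT libraries, with a log2 fold change of 0.77 (SE 0.67) and an adjusted p of 0.98 by DESeq2. It held 5.19% and 5.03% of the Mylk4 reads in WT, 6.70% in KO 1 and 0.715% in KO 2.

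Of the next sites, that at chr13:32781593-32781743, contained in a transcript, had 31 and 57 reads in WT and 45 and 63 in KO, and its log2 fold change was -0.37 (SE 0.86). The groups overlapped in normalized counts. At chr13:32701123-32701276, 315 bases from the end of the gene, there were 30 and 22 reads in WT and 48 and 55 in KO, with a log2 fold change of 0.26 (SE 0.92) and overlapping groups. At chr13:32702951-32703041 there were 1 and 20 reads in WT and 62 in each KO library, with a log2 fold change of 1.93 (SE 1.18) and an adjusted p of 0.71 by DESeq2. The value was 1.03 without WT 1 and 5.07 without WT 2.

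Among the sites with 0 reads in both libraries of 1 group and at least 5 in each library of the other, both Mylk4 sites were intronic and found in KO. The site at chr13:32750896-32750915 had 5 and 11 reads in KO and that at chr13:32797244-32797261 had 7 and 6. The latter lay at -13288 bases from the annotated start, within the annotated span of the gene. Without a minimum on reads, 6 Mylk4 sites were seen in each KO library and in no WT library, and 1 was seen in each WT library and in no KO library. Over all sites these patterns held for 6.55% and 1.26%.

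The number of Mylk4 sites with at least 1 read was 68 and 73 in WT and 93 in each KO library. Because the KO libraries were deeper, each library was thinned to the 1300069 reads of the smallest, which gave an expected 68.0 and 70.9 sites in WT and 87.4 and 89.3 in KO. The same thinning left 74.4% and 71.7% of all sites in WT and 84.0% and 78.6% in KO.

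Both KO libraries were above both WT libraries in normalized counts at 37 of the 100 Mylk4 sites, against 22.2% of all sites. Both WT libraries were above both KO libraries at 6 of them, against 13.9% of all sites. A site seen in the deeper KO libraries reaches the minimum of 10 reads for the table more easily, in Mylk4 as elsewhere. In bulk muscle a change in the share of cells that hold a transcript cannot be told apart from a change of its amount per cell. DESeq2 tested 28 of the Mylk4 sites, those with a mean normalized count above 8.76, and 24 of these had a fold change above 0. The median log2 fold change was 0.90 among them and 0.10 among all tested sites, 53.5% of which were higher in KO. The range was from -0.48 to 5.56, and no Mylk4 site was called lower in KO.

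**Figure D3:**
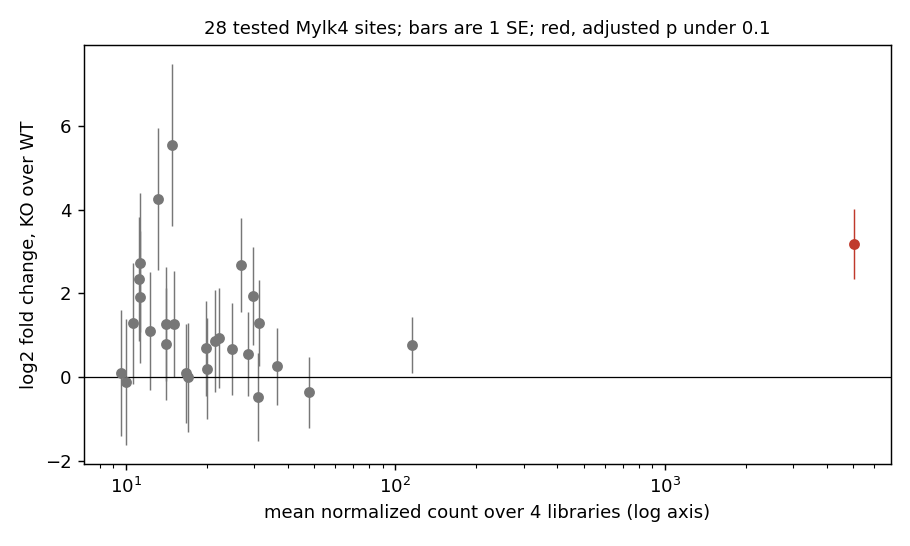
Log2 fold change of KO over WT against the mean normalized count on a log axis for the 28 tested Mylk4 sites, with bars of 1 SE. The called site, in red, sits at a mean of 5033 and a log2 fold change of 3.18, and the other 27 run from -0.48 to 5.56 with wide bars.

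Mylk2, the skeletal muscle kinase, had 6 sites on the plus strand within its span at chr2:152911281-152923065. Summed over them it had 19 reads in each WT library and 60 and 52 in KO. The normalized counts of the sum were 26.6 and 23.7 in WT and 36.6 and 45.4 in KO, so both KO libraries were above both WT libraries. The log2 fold change was 0.71 (SE 0.81) with an adjusted p of 0.93 by DESeq2 and 0.78 by edgeR's quasi-likelihood test, which did not pass.

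The most abundant Mylk2 site, at chr2:152916700-152916833 and contained in a transcript, had 6 and 3 reads in WT and 40 and 15 in KO. Its log2 fold change was 1.77 (SE 1.41) with an adjusted p of 0.94 by DESeq2, and it was the only Mylk2 site tested. It held 31.6% and 15.8% of the Mylk2 reads in WT and 66.7% and 28.8% in KO. The groups overlapped in this share.

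The remaining 5 Mylk2 sites had 10 to 21 reads in all. The site nearest to the 5′ end, at chr2:152913567-152913577, had 7 and 3 reads in KO and 0 in both WT libraries. That at chr2:152916413-152916431 had 7 reads in WT 2 and 10 in KO 2 and 0 in the other libraries. At chr2:152917216-152917271 the counts were 7 and 0 reads in WT and 3 and 9 in KO. The site across an exon and an intron at chr2:152917323-152917353 had 3 and 9 reads in WT and 1 and 8 in KO. The intronic site at chr2:152918200-152918203 had 3 and 0 reads in WT and 9 and 7 in KO. No site of Mylk2 other than the most abundant reached the mean of 8.76 normalized counts needed for an adjusted p.

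Mylk, the smooth muscle and non-muscle kinase, had 2 sites on the plus strand in a span of 257238 bases at chr16:34745199-35002436. The intronic site at chr16:34878460-34878480 had 8 and 5 reads in WT and 0 and 6 in KO. The site contained in a transcript at chr16:34921690-34921721 had 2 and 0 reads in WT and 8 and 1 in KO. The log2 fold change was -1.71 (SE 2.19) at the intronic site and 1.20 (SE 3.18) at the other, each smaller in size than its SE. At the latter site the groups overlapped in normalized counts. The sum of 10 and 5 reads in WT and 8 and 7 in KO gave no adjusted p. Of the smooth muscle markers, Myh11 had 30.9 and 43.6 normalized counts in WT and 33.0 and 55.9 in KO. Tagln, another gene of smooth muscle, had 28.0 and 13.7 in WT and 6.11 and 63.8 in KO. No smooth muscle marker was called.

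Mylk3, the cardiac kinase, had no site of any kind in its span at chr8:85324928-85386340. A site with fewer than 10 reads over the 4 libraries would not be listed, so a low level of Mylk3 could not be seen here.

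Divided by the length of the gene span, the normalized counts of the gene sums in WT were 16.6 ± 0.354 per kb for Mylk4, 2.13 ± 0.179 for Mylk2 and 0.0394 ± 0.0214 for Mylk (SD, n = 2 each). In KO they were 97.0 ± 107 per kb for Mylk4, 3.48 ± 0.527 for Mylk2 and 0.0214 ± 0.00338 for Mylk. In each of the 4 libraries the order was Mylk4, Mylk2 and Mylk, with no overlap between neighbouring genes in the order. The lowest Mylk4 level was 16.3 per kb, in WT 1, and the highest Mylk2 level was 3.86 per kb, in KO 2. The span includes introns, and these are levels of read ends and not of protein.

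The genes most like Mylk4 in profile, out of 3906 others with at least 100 reads, were Synpo, Zfp280b and Sun1. The measure was the root mean square difference of log2 normalized counts (plus 1, centred on each gene's mean over the 4 libraries), which was 0.204, 0.262 and 0.411. Synpo, which encodes an actin-associated protein, had 126 and 103 normalized counts in WT and 109 and 1117 in KO, with KO 2 standing apart as it did for Mylk4. Zfp280b had 30.9 and 28.6 in WT and 41.5 and 219 in KO, and Sun1, which encodes a nuclear envelope protein, had 12.6 and 18.7 in WT and 29.3 and 119 in KO. Those most like Mylk2 were Pdzd2, Ptprm and Phtf2, at 0.0226, 0.0370 and 0.0370. Each has been chosen for a likeness over 4 libraries, which is a description.

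The light chain phosphorylation pathway was described through 33 genes in 5 roles, of which 26 had a site and 23 were tested. By DESeq2 0 of the 23 were called, where 2.67% of all genes tested were, and by edgeR's quasi-likelihood test also 0, where 0.883% were. At an unadjusted p under 0.05, 2 of the 23 passed by DESeq2, against 9.77% of all genes tested. Of the 23, 10 were higher and 13 lower in KO, with a median log2 fold change of -0.23, where the median of all 4688 tested genes was 0.01 and 50.5% were higher in KO. Of the listed genes, 7 had no site, namely Myl2, Myl7, Myl9, Myl10, Ppp1ca, Dapk3 and Cit.

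Of the calmodulin genes, which encode the activator of the kinases, Calm3 had most reads with 134 and 209 in WT and 248 and 244 in KO, and its log2 fold change was -0.30 (SE 0.50). Of the regulatory light chains, the substrates, Mylpf, that of fast muscle fibres, had 263 and 331 reads in WT and 458 and 520 in KO, with a log2 fold change of -0.09 (SE 0.46). Myl12a, a non-sarcomeric light chain, stood at 0.72 (SE 0.56).

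Of the myosin phosphatase genes, which encode the opposing enzyme, Ppp1r12b, its targeting subunit in striated muscle, had most reads. It had 175 and 237 reads in WT and 939 and 824 in KO. Its log2 fold change stood at 1.26 (SE 0.44), where DESeq2 gave a p of 0.00393 and an adjusted p of 0.128 and edgeR an adjusted p of 0.338, neither of which passed. The other 4 tested genes of this role were lower in KO, with log2 fold changes from -0.37 to -0.87.

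**Figure D4:**
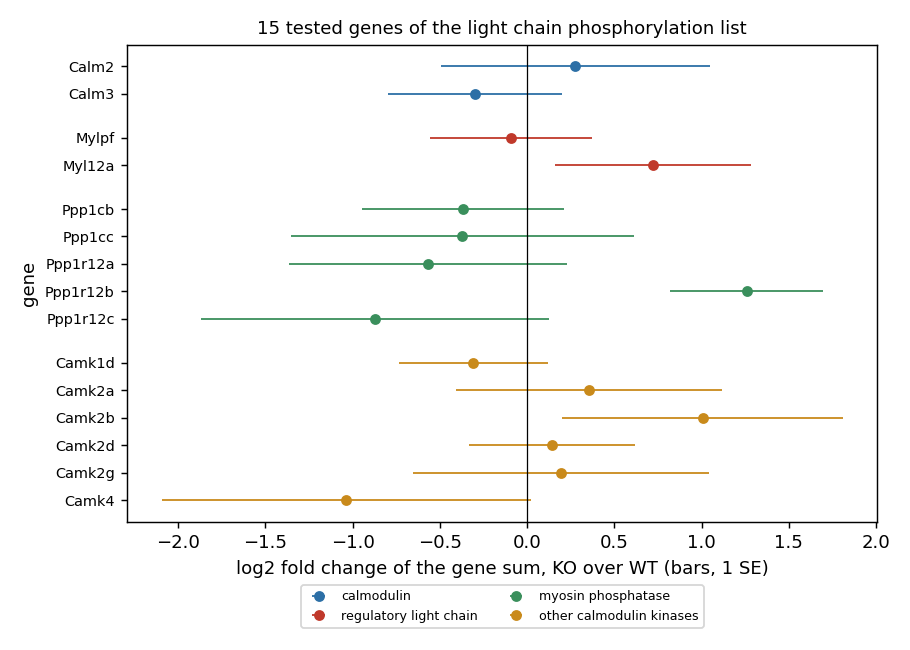
Log2 fold change of the gene sum of KO over WT with bars of 1 SE for 15 of the 23 tested genes of the light chain phosphorylation list, coloured by role. The other 8 tested genes are not drawn. Ppp1r12b sits at 1.26, and none of the 15 passed an adjusted p of 0.1.

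Of the other calmodulin-dependent kinases, Camk2d had most reads, 1068 and 660 in WT and 1516 and 1868 in KO, and its log2 fold change was 0.14 (SE 0.48).

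The summed markers of slow fibres, of smooth muscle and of endothelium were highest in KO 2, the library with the highest Mylk4 sum. Those of the other marker lists were not. The endothelium markers did not move together. Vwf and Tek were highest in KO 2, at 76.0 and 57.7 normalized counts. Pecam1 and Cdh5 were lowest in KO 2, at 6.99 and 1.75, and Kdr was neither. The slow fibre markers, whose expression goes with oxidative fibres, summed to 534 and 1242 normalized counts in WT and 1154 and 1654 in KO. The groups overlapped in this sum, 0 of the 6 tested were called, and Myl2 had no site. Of the 6, 5 were higher in KO, with a median log2 fold change of 0.64. Both KO libraries were above both WT libraries for 4 of the 8 with sites, Tnni1, Tnnt1, Tnnc1 and Atp2a2, against 21.7% of all genes. Tnnt1, the slow troponin T, had 7.01 and 46.1 normalized counts in WT and 65.4 and 94.4 in KO. The fast fibre markers summed to 33815 and 55674 in WT and 36125 and 47624 in KO. The fibroblast markers summed to 3768 and 3653 in WT and 2852 and 2521 in KO, so both KO libraries were below both WT libraries. All 6 of those tested were lower in KO, with a median log2 fold change of -0.56 and 0 called, and 4 of the 7 with sites, Col3a1, Dcn, Pdgfra and Fbn1, had no overlap between the groups, against 17.6% of all genes lower in KO in this way. The part of fibre type and of other cells in the Mylk4 values was not tested. The share of reads on mitochondrial and ribosomal RNA was 36.7% and 37.0% in KO and 37.1% and 41.8% in WT. KO 2 lay within the range of the other libraries in this share. What set its Mylk4 reads apart was not tested.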

How the data were processed

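RNA of 4 gastrocnemius samples, depleted of ribosomal RNA, was reverse transcribed with template switching, amplified by PCR and sequenced from the 5′ end on an Ion PGM, with no molecular identifiers described. The authors deposited raw read counts per clustered start site, 1 column per library, with positions on GRCm38.p5 per the labels. The aligner and the clustering window for these 5′-end libraries are not given in the sources used here, and the letters of the class codes were read as the methods define them for the sister 3′-end libraries. A last line of column totals was left out. The table of RefSeq genes and promoters was that of GRCm38.p6, which shares the primary chromosomes of GRCm38, and coordinates count from 1.

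Groups and replicate numbers came from the labels. Sites, and counts summed by gene symbol, were tested for a genotype effect by DESeq2 (version 1.42.0, Wald test) in R (version 4.3.3). The fit covered the whole table, with median-of-ratios size factors, at a Benjamini-Hochberg adjusted p under 0.1. An edgeR fit (version 4.0.16, quasi-likelihood) used TMM factors after filterByExpr, and usage within a gene was tested with diffSpliceDGE. Normalized counts of sites use the size factors of the site fit and those of gene sums the factors of the gene fit. The fits were also run on simulated counts. These had a lower dispersion than the most abundant Mylk4 site and the Mylk4 sum, and they left out shallow sites. They do not show how the fits perform on most member sites. The methods give 2 mice per group, 1 per library, and p-values rest on the spread between these few mice.

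Named were all 4 genes and, in each, the 6 sites with most reads, any site called, any site with 0 reads in both libraries of 1 group and at least 5 in each of the other, and the site nearest the annotated start. The pathway genes named were those called, those with most reads of each role, and Myl12a, which was chosen after its values were seen, as were the marker genes given singly. Some genes of the list are not reported here by name. The members, the rule and the gene lists were chosen with earlier results of these data known. Alternatives covered scaling, filters, thresholds, sites summed, a replicate block and the removal of each library, and the leaving out of the most abundant Mylk4 site in the usage test was chosen after seeing the data.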

Additional observations from a re-analysis of the deposited data

How the results depend on the processing

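The log2 fold change of the most abundant Mylk4 site stayed above 0 in all 12 alternatives, from 0.42 without KO 2 to 4.10 without KO 1. All the alternatives but the removal of KO 2 kept that library. With 4 libraries in DESeq2, the adjusted p was 0.0159 with TMM factors and 0.0289 after filterByExpr. It was 0.0281 with library totals without mitochondrial and ribosomal RNA, and 0.0519 with independent filtering off. The threshold of 0.05 used the main fit again. The site did not pass with edgeR or with either replicate block. The number of called member sites higher in KO, 1 in the main analysis, was 0 with edgeR, without KO replicate 2, without WT replicate 2 and with either replicate block, so that leaving out libraries gave 0 to 1. The Mylk4 sum was past the threshold with library totals without mitochondrial and ribosomal RNA (2.42, adjusted p 0.0214), with filterByExpr before DESeq2 (2.53, 0.0250), and without intronic and antisense sites (2.89, 0.00641), and leaving out 1 library gave 0.36 to 3.39. For Mylk the sum turned to 1.26 without intronic and antisense sites and to 1.00 without its most abundant site. For the usage of Mylk4 the F test gave 0.000462. The cause was not tested.

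In the whole table the sites called higher in KO, 259, became 48 with edgeR, 170 with those library totals, 123 with independent filtering off, 157 at a threshold of 0.05 and 28 to 227 without 1 library. The sites called lower, 98, became 32 with edgeR, 52 with independent filtering off, 65 at 0.05 and 16 to 84 without 1 library. The gene sums called, 80 higher and 45 lower, became 33 and 21 with edgeR, and without 1 library 34 to 64 and 9 to 36. The genes with changed usage, 29, became 14 at 0.05, 71 with the F test and 5 to 26 without 1 library.

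Of 165 values of named sites, 11 reversed, all at sites that were not called. With the library totals the Mylk2 sites at chr2:152917216-152917271 and chr2:152916413-152916431 turned to -0.12 and -0.17, and without 1 library they ran from -1.27 to 4.52 and from -5.10 to 4.08. Without 1 library the Mylk site at chr16:34921690-34921721 ran from -0.63 to 3.85, the Mylk4 site at chr13:32781593-32781743 from -0.89 to 0.048 and that at chr13:32701123-32701276 from -0.093 to 0.64.

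The deviations of same-numbered libraries correlated at 0.0673 over 11112 sites. With 2 libraries per group and many shallow sites, this value cannot settle whether the libraries were paired. With the replicate block the most abundant Mylk4 site had 2.26 (adjusted p 0.140) in DESeq2 and 2.195 (0.560) in edgeR, the Mylk4 sum had 1.86 (0.0712) in DESeq2, the Mylk2 site at chr2:152916413-152916431 had -0.38, and the calls of the whole table became 145 higher and 50 lower in DESeq2, 1 higher and 0 lower in edgeR and 12 genes in usage. Most member sites had at most 20 reads, which limits what could be detected. Where 1 library was left out, the lone library of its group was assumed to vary like the other group.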
